A study of Mus musculus with 4 samples.

Results

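Small leucine-rich proteoglycans were followed in quiescent mouse myoblasts kept with or without Wnt3A. The set comprised 8 genes, Dcn, Bgn, Lum, Fmod, Ogn, Omd, Aspn and Prelp, taken as every probe set of the value table whose platform gene symbol is one of these names. That gave 18 probe sets of the 22690 in the table. C2C12 cells, an established mouse myoblast line, were held for 48 hours in semi-solid methyl cellulose, a suspension culture in which they leave the cell cycle for G0, a reversible resting state. The Wnt3A group (2 arrays) received purified Wnt3A, a secreted ligand that stabilises β-catenin, at 50 ng/ml for those 48 hours, and the control group (2 arrays) is labelled as control. The protocol text of every sample mentions Wnt3A, so the groups follow the titles and the treatment label. Both groups are 1 cell line in the same suspension culture, and no growing or attached cells were set beside them. The labels call the replicates biological without saying whether cultures were started apart, so p-values measure the spread between these arrays, which may be technical.

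Small leucine-rich proteoglycans are secreted matrix proteins whose core is a row of leucine-rich repeats. Many carry chondroitin, dermatan or keratan sulfate chains, they bind collagen fibrils and set how thick these grow, and several also hold growth factors in the matrix. Decorin and biglycan bind TGF-β, a known inhibitor of myogenic differentiation, and myoblasts and muscle fibroblasts both secrete family members. By sequence the family is divided into classes: decorin, biglycan and asporin form the first, lumican, fibromodulin, PRELP and osteomodulin (Omd) belong to the second, and osteoglycin (Ogn, also called mimecan) to the third.

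The family divided into 3 patterns. Ogn, Dcn and Aspn read lower with Wnt3A than in control on every probe set, Fmod and Prelp read higher on every probe set, and Bgn and Omd had groups that overlapped. Lum was dim on all 4 arrays. In the limma fit, which set the adjusted threshold at 0.05, 0 of the 16 member probe sets bright enough for testing were called, beside 0.00% of all 16969 tested, and the members' adjusted p ran from 0.445 to 0.989. Before adjustment 12 of the 16 had p under 0.05, 8 higher and 4 lower, beside 4.94% of all tested (2.24% higher, 2.70% lower). Of these 12, 6 are of Fmod and measure the same RNA, and that of Aspn was bright enough only through its control values. The genes were also chosen with earlier results of these data known, so this count describes the set and tests nothing. The directions below are therefore those of the 4 arrays.

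Promoter windows are shown for the genes on which these patterns turn: Ogn, with the widest difference, Fmod and Prelp, which are higher and lie next to each other on chromosome 1, and Bgn, whose window alone holds the searched letters of a TCF/LEF site, the DNA element bound by the partners of β-catenin. The windows run from 250 bases before to 50 after the annotated start, 5′ to 3′ on the strand of the gene. They come from a set of RefSeq promoter windows on GRCm38.p6 that holds 6 of the 8 genes, all but Dcn and Lum. Capitals mark matches on either strand. The TCF/LEF site was searched as CTTTGAA, as well as CTTTGAT, besides CTTTGTA, along with CTTTGTT. The E-box, the element of myogenic factors, was searched as CAGCTG and also as CACCTG, while the TATA box was searched as TATAAA.
Ogn: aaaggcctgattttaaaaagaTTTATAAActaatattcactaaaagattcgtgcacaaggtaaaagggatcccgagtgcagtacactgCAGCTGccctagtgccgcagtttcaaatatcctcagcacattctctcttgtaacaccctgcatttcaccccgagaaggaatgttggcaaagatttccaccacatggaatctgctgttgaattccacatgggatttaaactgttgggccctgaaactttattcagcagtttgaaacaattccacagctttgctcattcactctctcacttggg
Fmod: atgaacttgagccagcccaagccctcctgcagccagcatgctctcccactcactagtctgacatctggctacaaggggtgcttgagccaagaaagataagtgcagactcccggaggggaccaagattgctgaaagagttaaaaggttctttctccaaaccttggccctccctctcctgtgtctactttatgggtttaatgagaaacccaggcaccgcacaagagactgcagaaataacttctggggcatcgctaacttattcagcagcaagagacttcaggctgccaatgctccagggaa
Prelp: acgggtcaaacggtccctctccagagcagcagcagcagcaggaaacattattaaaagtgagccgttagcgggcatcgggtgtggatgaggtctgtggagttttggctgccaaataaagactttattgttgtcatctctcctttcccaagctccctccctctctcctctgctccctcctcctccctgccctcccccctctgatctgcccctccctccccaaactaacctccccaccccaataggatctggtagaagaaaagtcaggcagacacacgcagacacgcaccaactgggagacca
Bgn: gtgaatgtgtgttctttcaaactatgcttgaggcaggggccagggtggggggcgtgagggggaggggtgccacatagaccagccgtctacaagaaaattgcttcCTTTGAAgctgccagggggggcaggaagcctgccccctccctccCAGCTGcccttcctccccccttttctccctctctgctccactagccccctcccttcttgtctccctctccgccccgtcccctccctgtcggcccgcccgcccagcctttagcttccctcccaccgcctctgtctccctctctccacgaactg
The Ogn window is chr13:49607765-49608064 (plus strand), that of Fmod chr1:134037004-134037303 (plus strand), that of Prelp chr1:133921352-133921651 (minus strand) and that of Bgn chrX:73483351-73483650 (plus strand). The Bgn window holds CTTTGAA with its first base at -146 from the start, and CAGCTG at -102. The Ogn window holds CAGCTG at -162 and a pair of overlapping TATAAA matches, at -229 on the opposite strand and -227 on the strand of the gene. The Fmod and Prelp windows hold none of the searched letters. Of all 32851 promoter windows of this length in the table, 16.9% hold a TCF/LEF match, 32.9% an E-box match and 13.6% a TATAAA match, so 1 TCF/LEF match among 6 windows is close to that share. The Aspn window, not printed, has 2 TATAAA matches and the Omd window has no match. A match describes letters, not a bound site.

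**Figure D1:**
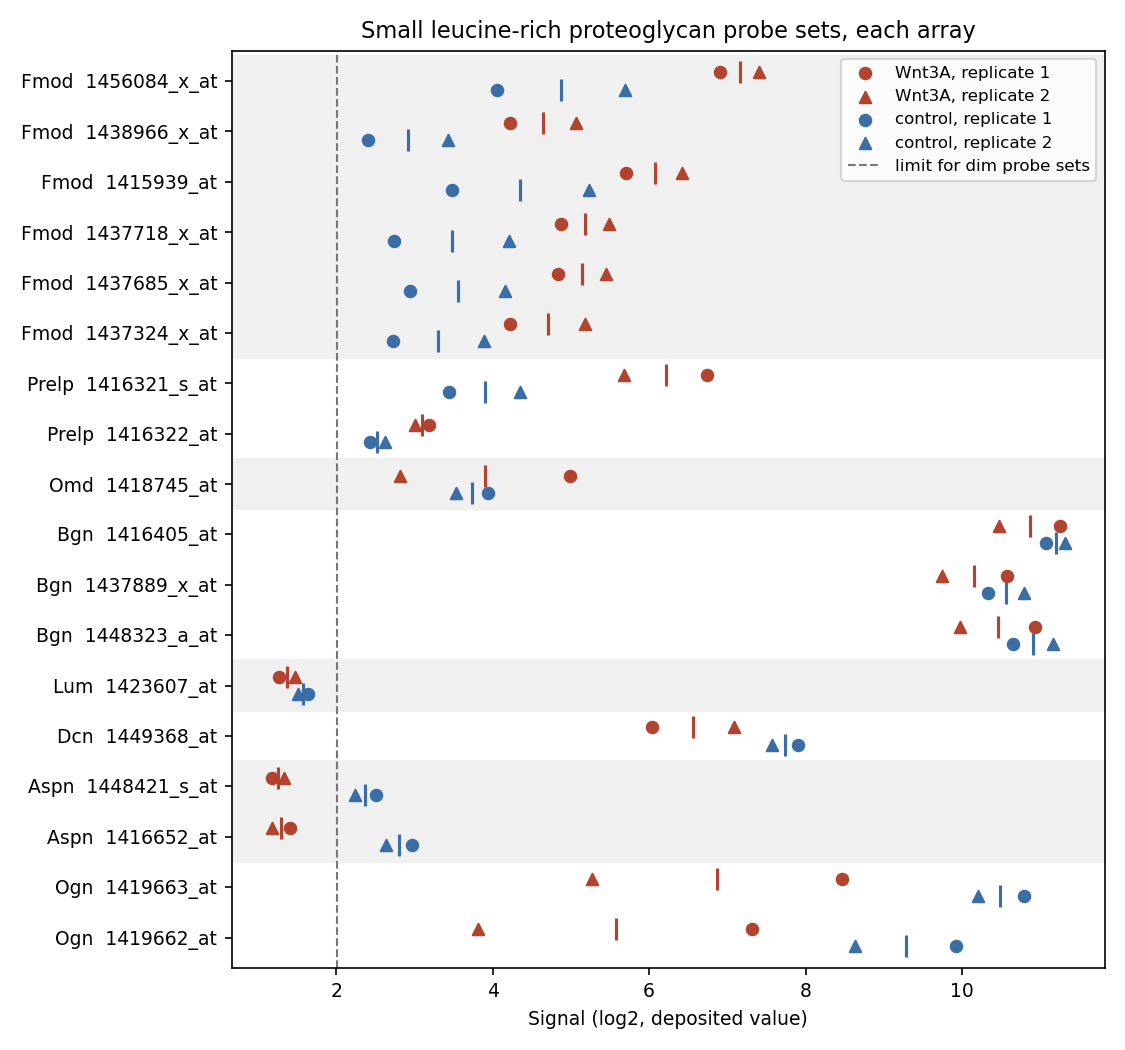
Log2 signals (x axis) of the 18 probe sets of the 8 genes (rows), with Wnt3A arrays in red above control arrays in blue, replicate 1 as circles, replicate 2 as triangles and short vertical bars for group means; the dashed line is the limit for dim probe sets, 2.01. All 6 Fmod probe sets and both Prelp probe sets have their Wnt3A points to the right of their control points, and both Ogn probe sets have them to the left.

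Signals are on a log2 scale as deposited, differences are Wnt3A minus control, intervals are confidence intervals, and means are given with the SD of n = 2 arrays per group. The levels of different probe sets are not set against each other, because each has its own probes. In their IDs the suffix _x_at marks probes that also match other sequences, and _a_at probes shared by transcripts of 1 gene. The suffix _s_at marks probes shared by several transcripts, which may be of different genes. Array medians lay between 4.15 and 4.22, and pairs of arrays correlated across tested probe sets at r = 0.947 to 0.983. The 2 Wnt3A arrays correlated at r = 0.962 and the 2 control arrays at r = 0.977. The lowest and the highest value were thus of pairs across the groups, and arrays of 1 group were not the most alike. The difference between the 3′ and 5′ control probe sets of Gapdh was 0.16 on both Wnt3A arrays, against 0.09 and 0.31 on control replicates 1 and 2. The array's 18S rRNA probe sets averaged 10.46 and 9.40 on the Wnt3A arrays and 10.42 on control replicate 1, while control replicate 2 read 7.21; differences without that array are given beside Fmod and Omd, and its part in the results was not tested. Of the myoblast markers, 9 probe sets of 8 genes were tested, none passed, and 2 were higher and 2 lower without overlap (median -0.12). Among all tested probe sets, 15.1% were higher and 17.9% lower without overlap. The log2 signals of the brightest myoblast marker probe sets summed to 54.19 and 47.99 with Wnt3A, against 52.03 and 55.08 in control. Des (desmin) read 9.08 and 8.10 on the Wnt3A arrays, against 8.73 and 8.92 on the control arrays, and Chrna1, a subunit of the muscle acetylcholine receptor, read 9.60 and 9.73, against 8.75 and 9.70. Myod1, the gene of the myogenic factor MyoD, read 6.32 and 3.62, against 6.84 and 7.11, so Wnt3A replicate 2 stood apart in this marker. It was also the lowest array in Des and in the marker Cdh15, which read 5.69 and 4.04, against 5.39 and 5.56. In Chrna1 the 2 Wnt3A arrays were close. Differences without Wnt3A replicate 2 are given beside Dcn, Bgn, Omd and Ogn, and its part in the results was not tested. Myf5, an early myogenic factor gene, read 7.77 and 7.65, against 6.57 and 5.98, without overlap (difference 1.43, limma adjusted p = 0.629). Myog, the gene of the later factor myogenin, read 7.42 and 6.66, against 8.0 and 9.27, also without overlap (difference -1.59, limma adjusted p = 0.919). In cultured cells measured in bulk, fewer cells that express a gene and less RNA per cell cannot be told apart.

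Of the 16 tested probe sets, 12 had groups that did not overlap, 8 with both Wnt3A arrays above both controls and 4 below, where 33.0% of all tested probe sets did not overlap (15.1% higher, 17.9% lower). At least 2-fold apart and without overlap were 11 of the 16, 7 higher and 4 lower, against a background of 3.03% of tested probe sets (1.34% higher and 1.70% lower). Among them, the Aspn probe set had Wnt3A signals under the limit for dim probe sets, so its fold is not supported. The other 10, 7 higher and 3 lower, came from 4 genes, Fmod, Prelp, Dcn and Ogn. Probe sets of 1 gene measure the same RNA, and the genes were chosen with earlier results of these data known, so these shares describe the set and test nothing. The median difference over the 16 tested probe sets was 0.37 and over all 18 it was -0.019, beside -0.0037 over all tested probe sets. An exact permutation test of 2 against 2 arrays cannot go below p = 0.333, so the limma fit across all probe sets is the test used.

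Dcn encodes decorin, which binds collagen fibrils, TGF-β and several receptor tyrosine kinases. Its single probe set (1449368_at) read 6.03 and 7.08 on the Wnt3A arrays, against 7.90 and 7.57 on the control arrays. Both Wnt3A arrays lay below both controls, and the nearest pair of arrays across the groups was 0.49 apart. The means were 6.56 ± 0.74 with Wnt3A and 7.74 ± 0.24 in control (SD, n = 2 each), a difference of -1.18 (SE 0.41, 95% interval from -2.24 to -0.12, limma adjusted p = 0.949), which is 2.26-fold lower with Wnt3A. The difference was -0.65 without Wnt3A replicate 1 and -1.70 without Wnt3A replicate 2.

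Aspn encodes asporin, a relative of decorin that lacks the usual site for a sulfated chain. Its probe set 1416652_at read 1.40 and 1.18 on the Wnt3A arrays, against 2.96 and 2.63 on the control arrays. The other, 1448421_s_at, read 1.17 and 1.33 with Wnt3A, against 2.51 and 2.24 in control. Both were above 2.01, the limit for dim probe sets, on the control arrays and below it on the Wnt3A arrays. The differences were -1.51 (SE 0.18, 95% interval from -1.98 to -1.03, limma adjusted p = 0.445) and -1.12 (SE 0.15). The second was too dim to be tested by the mean of all arrays, and the first passed that limit through its control values. At an unadjusted p of 0.000536, the first had the lowest p of the family, with arrays 0.23 apart within the Wnt3A group and 0.34 apart within control. As the Wnt3A signals were under the limit, no fold is given.

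Bgn encodes biglycan, the close relative of decorin that also signals through Toll-like receptors when it is released. Its probe set 1416405_at read 11.26 and 10.48 on the Wnt3A arrays, against 11.07 and 11.32 on the control arrays. Probe set 1437889_x_at read 10.58 and 9.74, against 10.33 and 10.80, and 1448323_a_at read 10.94 and 9.98, against 10.66 and 11.16. The order of arrays was the same on all 3 probe sets: Wnt3A replicate 2 was lowest and Wnt3A replicate 1 lay between the controls. Differences ran from -0.45 to -0.32 with SEs of 0.30 to 0.38 (limma adjusted p = 0.977 for each), and the 95% confidence interval of 1416405_at was -1.11 to 0.46. Without Wnt3A replicate 2 the differences were 0.06, 0.02 and 0.04 in the order named.

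Fmod encodes fibromodulin, a keratan sulfate proteoglycan that binds collagen fibrils and guides their assembly in tendon. The probe set 1456084_x_at read 6.91 and 7.41 on the Wnt3A arrays, against 4.05 and 5.69 on the control arrays. The probe set 1415939_at, the only one of its 6 without the _x_at suffix, read 5.71 and 6.42, against 3.48 and 5.23. On all 6 probe sets the arrays stood in the same order, control replicate 1, control replicate 2, Wnt3A replicate 1 and Wnt3A replicate 2 from low to high, so the groups did not overlap on any of them. The difference was 2.29 (SE 0.59, 95% interval from 0.74 to 3.84, limma adjusted p = 0.789) for 1456084_x_at, with means of 7.16 ± 0.36 with Wnt3A and 4.87 ± 1.16 in control (SD, n = 2 each), or 4.89-fold. It was 1.71 (SE 0.65, 95% interval from 0.02 to 3.41, limma adjusted p = 0.977) for 1415939_at.

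The remaining 4 Fmod probe sets differed by 1.40 (1437324_x_at), 1.59 (1437685_x_at), 1.70 (1437718_x_at) and 1.73 (1438966_x_at), with SEs from 0.47 to 0.56. The closest arrays across the groups were Wnt3A replicate 1 and control replicate 2, which lay 0.34 apart on 1437324_x_at and 1.22 apart on 1456084_x_at. The control arrays were themselves far apart on every Fmod probe set, by 1.03 to 1.75, and only 1.03% of tested probe sets had a wider control gap than 1415939_at. Control replicate 2, the array with the low 18S signal, was the higher control. Without it the differences were 1.99 to 3.11, and without control replicate 1 they were 0.82 to 1.47.

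Prelp encodes PRELP, a heparin-binding family member that links basement membranes to collagen. Its probe set 1416321_s_at read 6.74 and 5.68 on the Wnt3A arrays, against 3.44 and 4.35 on the control arrays. The dimmer 1416322_at read 3.18 and 3.0, against 2.43 and 2.62. Both probe sets placed both Wnt3A arrays above both controls and ordered the 4 arrays alike, with Wnt3A replicate 1 highest. The difference of 1416321_s_at was 2.32 (SE 0.50, 95% interval from 1.01 to 3.63, limma adjusted p = 0.701), with means of 6.21 ± 0.75 with Wnt3A and 3.90 ± 0.65 in control (SD, n = 2 each), or 4.99-fold. That of 1416322_at was 0.57 (SE 0.18, adjusted p = 0.900). Among all tested probe sets ordered from the highest difference, 1416321_s_at had rank 28 and 1456084_x_at of Fmod rank 29.

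Scaling the arrays to their hybridization controls, RNAs added in known amounts, moved the median difference of all tested probe sets to 0.32. Under it 1416321_s_at of Prelp differed by 2.64 (limma adjusted p = 0.0171) and 1456084_x_at of Fmod by 2.61 (adjusted p = 0.0407), and both passed. Relative to that shift their differences were 2.32 and 2.29, the same as on the deposited values. The other 14 tested member probe sets did not pass under it. None of the 16 changed sign, but the Bgn differences came close to 0, at -0.01, -0.08 and -0.13. Those of Dcn and Aspn 1416652_at were -0.86 and -1.19 after scaling.

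Lum encodes lumican, a keratan sulfate proteoglycan known for corneal transparency. Its probe set (1423607_at) read 1.26 and 1.47 on the Wnt3A arrays, against 1.63 and 1.51 on the control arrays. All 4 arrays were under the limit of 2.01, so the gene was not tested and no fold is given.

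Omd encodes osteomodulin, a keratan sulfate proteoglycan of mineralised matrix. Its probe set (1418745_at) read 4.99 and 2.81 on the Wnt3A arrays, against 3.94 and 3.53 on the control arrays. The Wnt3A arrays lay on either side of the controls and 2.18 apart, a gap that 1.21% of tested probe sets exceeded. The difference was 0.16 (SE 0.74, 95% interval from -1.78 to 2.11, limma adjusted p = 0.989), an interval that spans wide changes in both directions. It was -0.93 without Wnt3A replicate 1, 1.25 without Wnt3A replicate 2 and -0.04 without control replicate 2.

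Ogn encodes osteoglycin, a small proteoglycan of the third class that is secreted by muscle, bone and connective tissue cells. Its probe set 1419663_at read 8.47 and 5.27 on the Wnt3A arrays, against 10.79 and 10.20 on the control arrays. The second, 1419662_at, read 7.32 and 3.81, against 9.93 and 8.63. On both probe sets both Wnt3A arrays lay below both controls, and Wnt3A replicate 2 was the lowest. The differences were -3.62 (SE 1.07, 95% interval from -6.41 to -0.83, limma adjusted p = 0.851) and -3.72 (SE 1.22, 95% interval from -6.91 to -0.52, limma adjusted p = 0.940), which are 12.3-fold and 13.1-fold lower with Wnt3A.

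The size of the Ogn difference turned on the Wnt3A arrays, which were 3.20 and 3.50 apart on the 2 probe sets. Among all tested probe sets, 0.301% and 0.165% had a wider Wnt3A gap. Without Wnt3A replicate 2 the differences were -2.02 and -1.96, and without Wnt3A replicate 1 they were -5.22 and -5.47. The closest arrays across the groups, Wnt3A replicate 1 and control replicate 2, were still 1.72 and 1.32 apart. Among all tested probe sets ordered from the lowest difference, 1419662_at had rank 13 and 1419663_at rank 14.

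**Figure D2:**
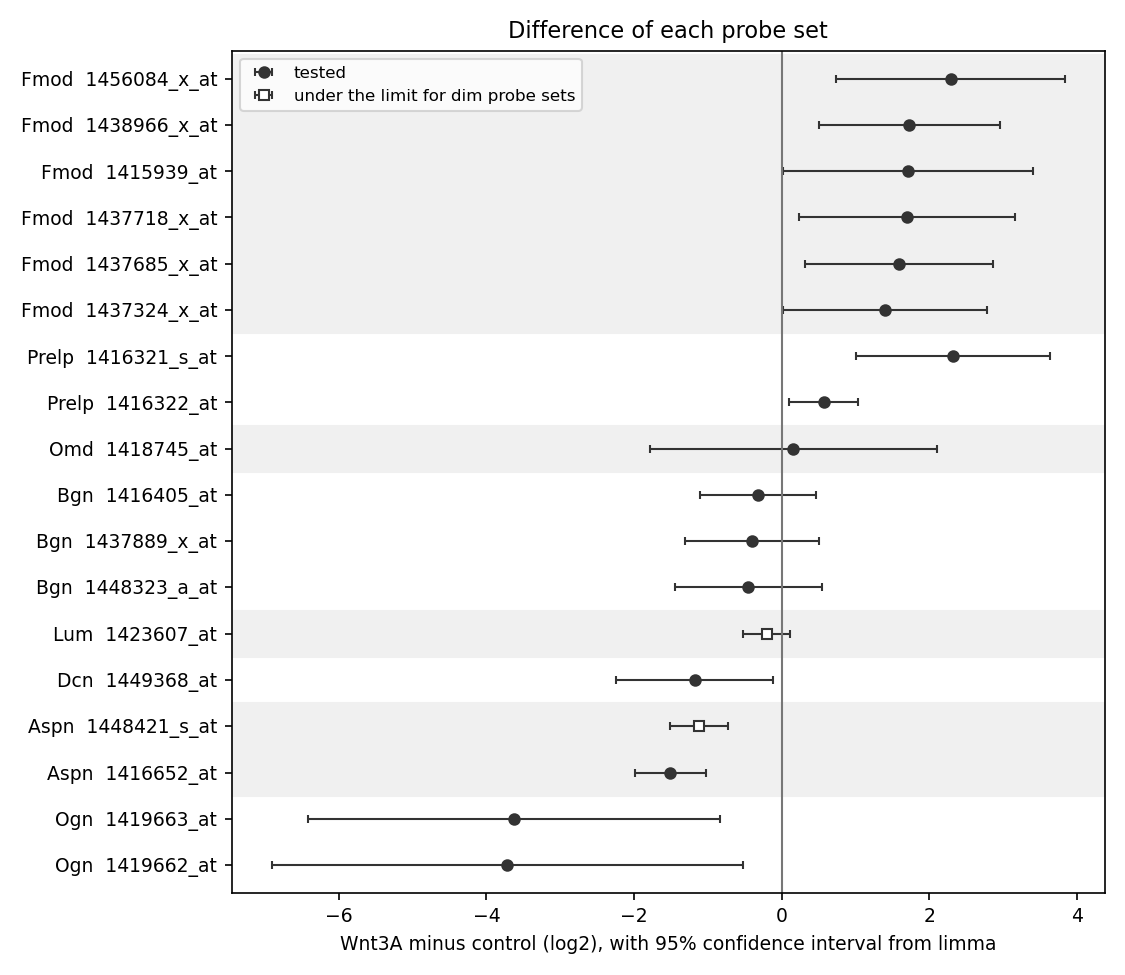
Differences Wnt3A minus control on the log2 scale (x axis) for the 18 probe sets (rows), with 95% confidence intervals from limma; filled circles are tested probe sets and open squares those under the limit for dim probe sets. The intervals of Fmod, Prelp, Dcn, Aspn and Ogn exclude 0 before adjustment, and those of Omd, Bgn and Lum include it. Those of Fmod 1437324_x_at and 1415939_at only just exclude it, with lower limits of 0.02. The Wnt3A signals of Aspn were under the limit for dim probe sets.

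**Figure D3:**
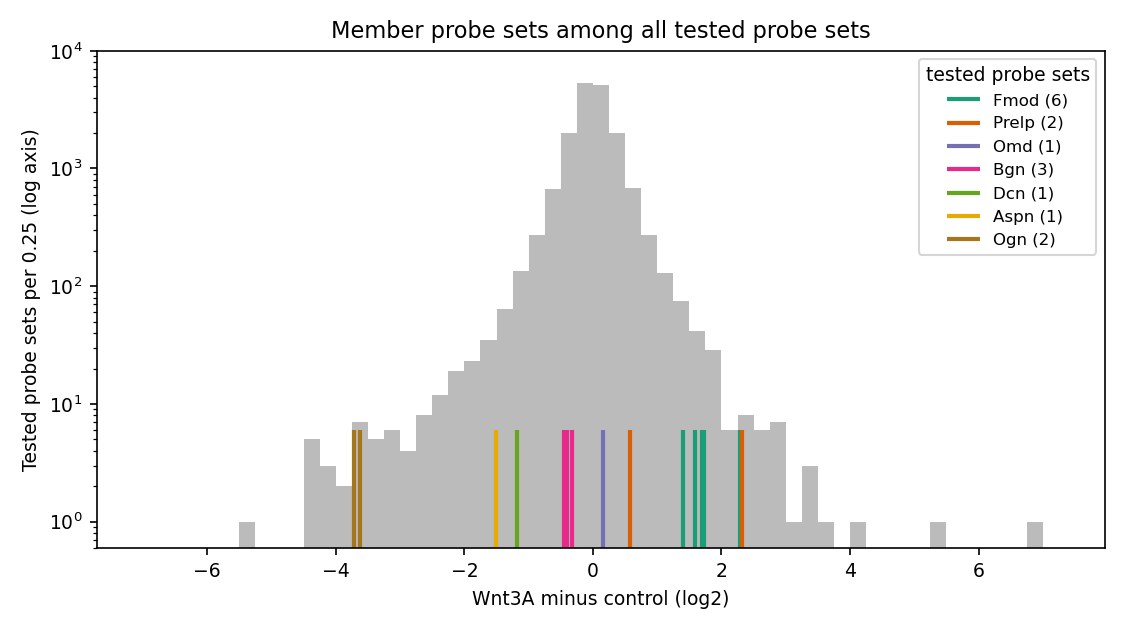
Histogram of the differences of all 16969 tested probe sets (grey, number per 0.25 log2 units on a log axis) with the 16 tested member probe sets as coloured lines. Ogn lies in the far lower tail at -3.72 and -3.62, Prelp and Fmod reach 2.32 and 2.29 in the upper tail, and Bgn and Omd lie near the centre.

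**Figure D4:**
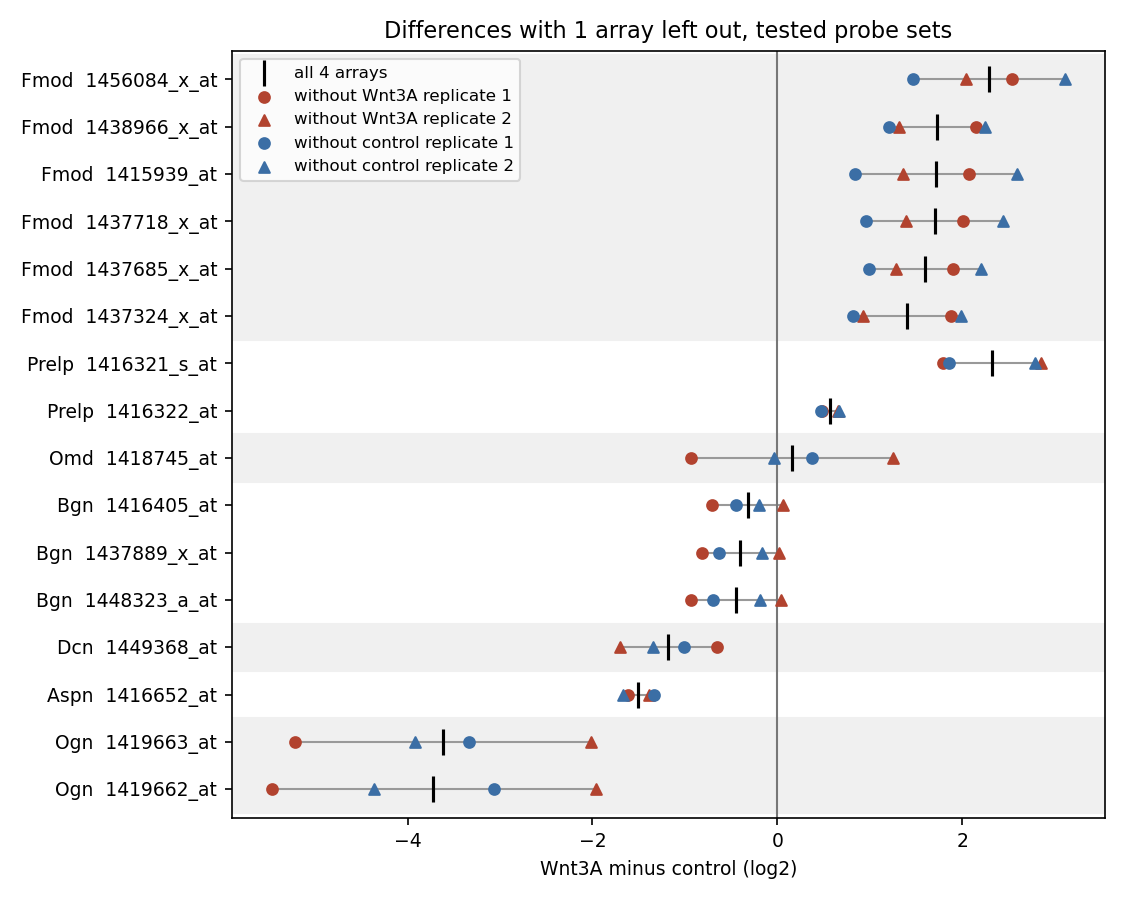
Differences Wnt3A minus control on the log2 scale (x axis) of the 16 tested probe sets (rows) with all 4 arrays (black bars) and with 1 array left out (red for a Wnt3A array, blue for a control array, circles for replicate 1 and triangles for replicate 2). Ogn spreads from -5.47 to -1.96, Fmod from 0.82 to 3.11, and Omd and Bgn cross 0.

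In 3 places the genes sit in clusters of the family, by the gene order of RefSeq on GRCm38.p6, while Bgn is on chromosome X apart from the others. On chromosome 1 Prelp and Fmod, both higher with Wnt3A, are next to each other. Their neighbours on either side were close to 0: Optc, the gene of the eye proteoglycan opticin, differed by 0.09 and Btg2, an antiproliferative gene, by -0.22 and -0.25 on its 2 probe sets. On chromosome 13 the order is Aspn, Omd and Ogn, and Omd lies between the lower pair with a difference of 0.16. That difference comes from Wnt3A arrays on either side of the controls and ran from -0.93 to 1.25 with 1 array left out. It therefore does not show Omd as unchanged, and the Wnt3A signals of Aspn were under the limit for dim probe sets. On chromosome 10 Dcn is followed by Lum, Kera and Epyc, and the last 3 were dim on all arrays, with differences of -0.20, 0.04 and 0.02.

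**Figure D5:**
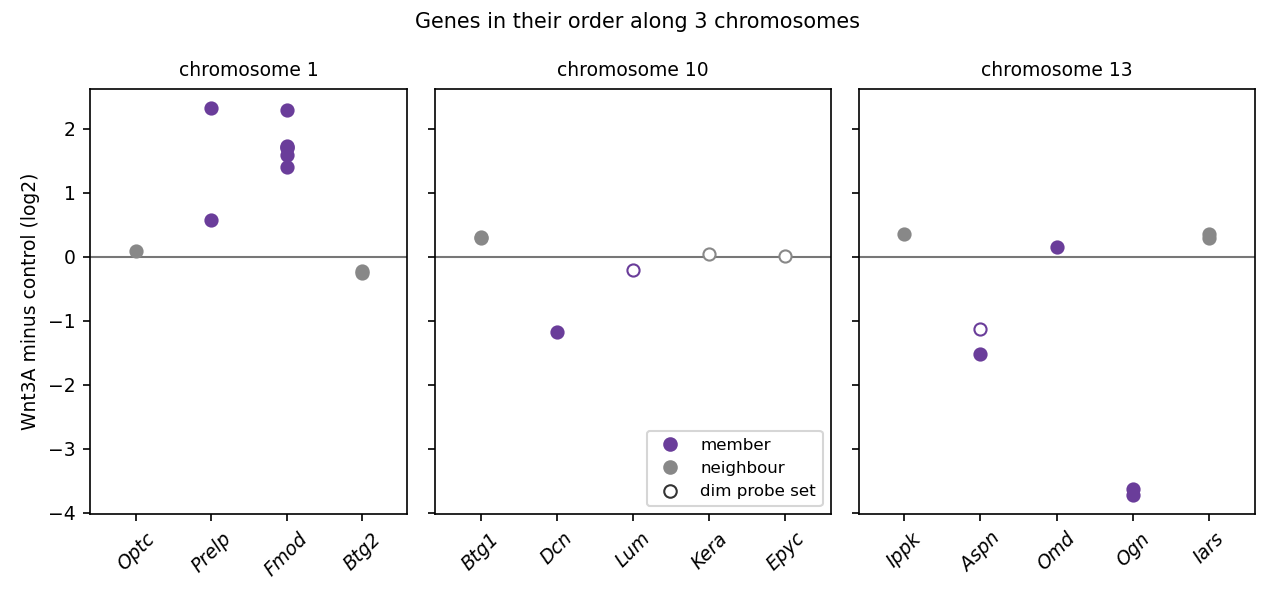
Differences Wnt3A minus control on the log2 scale (y axis) of the members (purple) and of flanking genes with a probe set (grey), in their order along chromosomes 1, 10 and 13; each point is a probe set, and open points are under the limit for dim probe sets. Prelp and Fmod stand above 0 between flanking genes near 0, and Aspn and Ogn stand below 0 on either side of Omd. The Wnt3A arrays of Omd lay on either side of its controls, and the Wnt3A signals of Aspn were under the limit for dim probe sets.

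Genes with array profiles most like those of Ogn and Prelp, the members of widest difference, were sought among all tested and named probe sets by the root mean square distance of log2 signals centred over the 4 arrays. Closest to 1419662_at of Ogn was Apoe, the apolipoprotein E gene, at a distance of 0.20, with 7.44 and 3.42 on the Wnt3A arrays, against 9.70 and 8.63 on the control arrays. Vcam1, a cell adhesion receptor gene, followed at 0.43 and Rgs2, a regulator of G protein signalling, at 0.46. Each has the low Wnt3A replicate 2 that marks Ogn. Closest to 1416321_s_at of Prelp were Glrb, a glycine receptor subunit gene, at 0.24, then the matrix gene Tnc (tenascin C) and the amino acid transporter gene Slc7a7, both at 0.32. With 4 arrays such likeness is a description of shape alone.

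Few other genes of the family were measured. Of 10 further members (Kera, Epyc, Optc, Chad, Chadl, Nyx, Podn, Podnl1, Ecm2 and Tsku), 4 had a probe set named here and 1, Optc, was bright enough for testing: it read 2.43 and 2.48 with Wnt3A, against 2.42 and 2.31 in control. Of the enzymes that build the linker and the chondroitin or dermatan sulfate chain, 20 probe sets of 15 genes were tested and none passed (median -0.017). Without overlap, 2 were higher and 5 lower, beside 15.1% and 17.9% of all tested probe sets. Csgalnact1, which starts the chondroitin chain, differed by -1.17 (SE 0.29) on 1452366_at and -1.01 (SE 0.27) on 1452365_at (limma adjusted p = 0.789 for each). Chpf, a chondroitin polymerising factor, read 4.61 and 4.94 with Wnt3A, against 5.46 and 5.58 in control.

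Sulfate supply and keratan sulfate synthesis were represented by 12 tested probe sets of 10 genes, of which none passed (median 0.047). Without overlap, 2 were higher and 1 was lower, beside 15.1% and 17.9% of all tested probe sets. B3gnt2, which extends the N-acetyllactosamine chains that become keratan sulfate, read 7.97 and 7.94 with Wnt3A, against 7.04 and 6.89 in control, on 1450026_a_at. It differed by 0.99 (SE 0.20, limma adjusted p = 0.652), and on 1420852_a_at it was 1.25 (SE 0.26). Chst1, a keratan sulfate sulfotransferase, differed the other way, by -0.80 (SE 0.25, adjusted p = 0.907).

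Collagen partners of the family and the enzymes that process them gave 24 tested probe sets of 13 genes, with none past the test and a median of -0.014. Without overlap, 4 were higher and 6 lower, beside 15.1% and 17.9% of all tested probe sets. Col3a1, a fibrillar collagen, differed by -0.45 (SE 0.18) on 1427883_a_at and Col6a1, a beaded-filament collagen to which decorin and biglycan bind, by -0.99 (SE 0.42). Signalling partners gave 21 tested probe sets of 12 genes, with none past the test (median -0.017). Of these, 6 were higher and 6 lower without overlap, beside the same shares of 15.1% and 17.9%. Lrp1, an endocytic receptor of decorin, read 8.26 and 7.86 with Wnt3A, against 9.06 and 8.98 in control, a difference of -0.96 (SE 0.22, limma adjusted p = 0.723). Ccn4, a matricellular protein gene and reported β-catenin target whose product binds decorin and biglycan, read 7.90 and 7.72, against 7.18 and 6.91, a difference of 0.77 (SE 0.22, adjusted p = 0.846).

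Marker lists of other cell types had 0 probe sets past the test, and their values are given beside those of the members. Their counts without overlap stand beside 15.1% higher and 17.9% lower among all tested probe sets. Of 10 tested probe sets of fibroblast markers outside the family, 6 were below 0, 5 of the 10 without overlap below and 1 above, and the log2 signals of the brightest probe sets of the 10 genes summed to 42.07 and 37.36 with Wnt3A, against 44.07 and 45.36 in control. Thy1, Dpt and Tcf21 were under 2.01 on all arrays, while S100a4 read 11.92 and 12.00 with Wnt3A, against 11.75 and 12.16 in control. Pdgfra, a growth factor receptor gene, read 8.69 and 7.29 on 1421917_at, against 9.18 and 9.25. Fap, the fibroblast activation protein gene, read 1.79 and 1.38, against 2.93 and 3.54, without overlap (difference -1.65, limma adjusted p = 0.556). Its Wnt3A signals were under 2.01, and it passed that limit through its control values, so the size of its difference is not supported. Adipocyte markers were below 0 on 5 of 5 tested probe sets, 4 without overlap, and 4 genes summed to 12.63 and 11.01 with Wnt3A, against 20.87 and 17.23 in control. Lpl (lipoprotein lipase) on 1415904_at read 6.54 and 4.92, against 11.10 and 8.70, Pparg, the adipogenic regulator, read 2.86 and 2.30, against 4.35 and 3.49, and Adipoq was under 2.01 on all arrays. Tendon and cartilage markers were above 0 on 4 of 5 tested probe sets, 2 without overlap, and 8 genes summed to 20.78 and 21.75 with Wnt3A, against 19.80 and 20.42 in control. The cartilage factor gene Sox9 read 7.19 and 7.89 on 1451538_at, against 6.42 and 7.15, without overlap, but its other probe set, 1424950_at, read 6.14 and 6.77, against 5.38 and 7.31, and overlapped (difference 0.11). The tendon factor gene Scx read 3.08 and 3.02, against 1.98 and 2.43, while Tnmd (tenomodulin), Thbs4 and Col11a1 were under 2.01 on all arrays. Of 6 tested probe sets of macrophage and endothelial markers, 4 were above 0 and 2 below, with 2 higher and 1 lower without overlap. The 7 genes summed to 15.07 and 17.15 with Wnt3A, against 15.19 and 15.43 in control. Csf1r on 1419872_at read 2.67 and 6.07, against 2.98 and 3.18, and overlapped. On 1419873_s_at it read 3.53 and 5.19, against 3.26 and 3.39, without overlap. On 1423593_a_at it read 2.68 and 3.61, against 2.69 and 3.32, and overlapped (difference 0.14). Ptprc, Pecam1 and Cdh5 were under 2.01 on all arrays. The part of these cell types in the differences of Dcn, Aspn, Ogn, Fmod and Prelp was not tested.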

How the data were processed

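Affymetrix arrays measured RNA of C2C12 cells in 2 groups of 2, assigned from the sample titles (the treatment labels give the same groups). The authors deposited log2 signals, 1 per probe set and array; the scale and base are not stated and were read from the values (0.50 to 13.23), and another base would rescale every difference. GCOS and PLIER are named, without version or role, per the submitters' processing notes; the sources used here name neither a normalization nor a build. Gene names came from the platform annotation: 20393 probe sets have 1 symbol, 691 have several and were not named, and 20364 were matched by Entrez ID to RefSeq symbols (GRCm38.p6). Centring stays unknown; the column medians were 4.22 and 4.15 for Wnt3A and 4.19 and 4.20 for control replicates 1 and 2, and nothing was normalized again.

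Of 22626 probe sets outside the 64 array controls, the lowest 25% by mean over the 4 arrays, under 2.01, were left out and 16969 tested in R 4.3.3 with limma 3.58.1 (lmFit, eBayes with an intensity trend, 4.77 degrees of freedom, two-sided, Benjamini-Hochberg over all tested probe sets, threshold 0.05). Untested members were fitted without the filter and are given as values. The number of arrays limits the precision. The procedure was tested on simulated data. Members, lists, alternatives and the naming rule were chosen with earlier results of these data known; the rule names every member, up to 4 list genes past the threshold or else the 2 of lowest p, at most 2 of the brightest markers per list, and the 3 nearest profiles of 2 members. Myod1, Cdh15, Myf5, Myog, Fap and the markers dim on all arrays were named beside it after their values were seen.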

Additional observations from a re-analysis of the deposited data

How the results depend on the processing

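With quantile normalization, median centring, no filter, the dimmer 50% left out, no intensity trend or 1 probe set per gene, 0 probe sets passed in limma (at an unadjusted p under 0.05 there were 839 on the values as deposited and from 528 to 1084 under these). No tested member probe set changed sign with quantile normalization or with median centring, which moves all differences alike. The other settings named here use the values as deposited, so no difference could change. With 1 probe set per gene, 6 member probe sets remained. The replicate number as a block gave 83 calls and scaling to hybridization controls 68. Under the block Aspn 1416652_at (adjusted p = 0.0271 in limma), Fmod 1438966_x_at (0.0432) and Ogn 1419662_at (0.0476) passed; same-numbered arrays deviated together (r = 0.52 across probe sets), but 2 pairs sharing only a number do not show a pairing. The median over tested member probe sets was -0.32 with the dimmer 50% left out, where 11 of the 16 remained, -0.02 with no filter, -0.08 with 1 probe set per gene (against 0.37 over all 16, of which 6 are of Fmod) and 0.68 with hybridization control scaling. With 1 array left out, when the lone array is assumed to vary like the others, 0 probe sets passed (435 to 1971 at an unadjusted p under 0.05) and that median ran from -0.09 to 0.79. Signs turned for Omd (-0.93 to 1.25) and for Bgn 1416405_at (-0.71 to 0.06), 1437889_x_at (-0.82 to 0.02) and 1448323_a_at (-0.93 to 0.04); the cause was not tested. Dim signals limit Lum and Aspn. No group was large enough to look for outlying arrays.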
